A study of Mus musculus with 4 samples.

Results

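Cortical interneuron genes were followed here as 10 genes chosen by symbol, out of 48395 genes in the table: the ganglionic-eminence transcription factors Dlx1, Dlx2, Dlx5, Dlx6 and Nkx2-1, the interneuron factor Lhx6, the GABA-synthesizing enzymes Gad1 and Gad2, and the neuropeptides Sst and Npy. Each symbol had 1 entry in the table. RNA was measured in sorted fluorescent cells of the embryonic cortex of ICR mice, electroporated in utero at E14.5 and collected 48 hours later, at E16.5. The Zeb1 group (n = 2 libraries) carried a plasmid in which the CAG promoter, active in most cell types, drives Zeb1 together with the green fluorescent protein ZsGreen, and the control group (n = 2 libraries) carried the plasmid with ZsGreen alone. Both groups therefore share the electroporation, the fluorescent protein and the sort. The labels do not say how many embryos or litters went into a library, and the p-values below reflect no more than the variation among these 4 libraries, which may be technical.

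Cortical inhibitory interneurons are not born in the cortex itself but in the ganglionic eminences of the ventral telencephalon, from which they migrate tangentially into the cortical wall. DLX homeodomain factors act in nearly all of these precursors, NKX2-1 specifies those of the medial eminence and switches on Lhx6, and GAD1 and GAD2 then make the transmitter GABA. Glutamatergic projection neurons arise instead from the cortical ventricular zone, the wall that in utero electroporation of the cortex is meant to reach. The 10 genes thus serve as a check of which cells the sort held, and of whether a 48-hour excess of the repressor ZEB1 was accompanied by another level of inhibitory-lineage RNA.

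Absolute depth is unknown, because the table holds FPKM (fragments per kilobase of transcript scaled to the sequenced fragments) and no counts. Relative depth, taken from genes shorter than 200 bp, lay between 0.994 and 1.04 times that of control replicate 1, and 13647 to 13997 genes per library reached 1 FPKM. Zeb1, the gene on the plasmid, had 5622 and 6227 FPKM in the Zeb1 libraries, against 35.2 and 18.6 FPKM in the controls.

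RNA of the interneuron genes was present in both groups at a low level. Their summed level was 52.7 and 61.9 FPKM in the Zeb1 libraries, against 57.7 and 66.3 FPKM in the controls. The groups overlapped on this sum, with a Zeb1 library lowest and a control library highest. A list of 17 pallial progenitor and glutamatergic neuron markers, such as Emx1, Neurod6 and Slc17a6, summed to 1750 and 1625 FPKM in the Zeb1 libraries, against 1899 and 1965 FPKM in the controls. The interneuron sum was 3.01% and 3.81% of that pallial sum in the Zeb1 libraries, against 3.04% and 3.37% in the controls. In bulk RNA, the number of interneurons and the RNA per interneuron cannot be told apart, and which cells made this RNA was not tested.

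**Figure D1:**
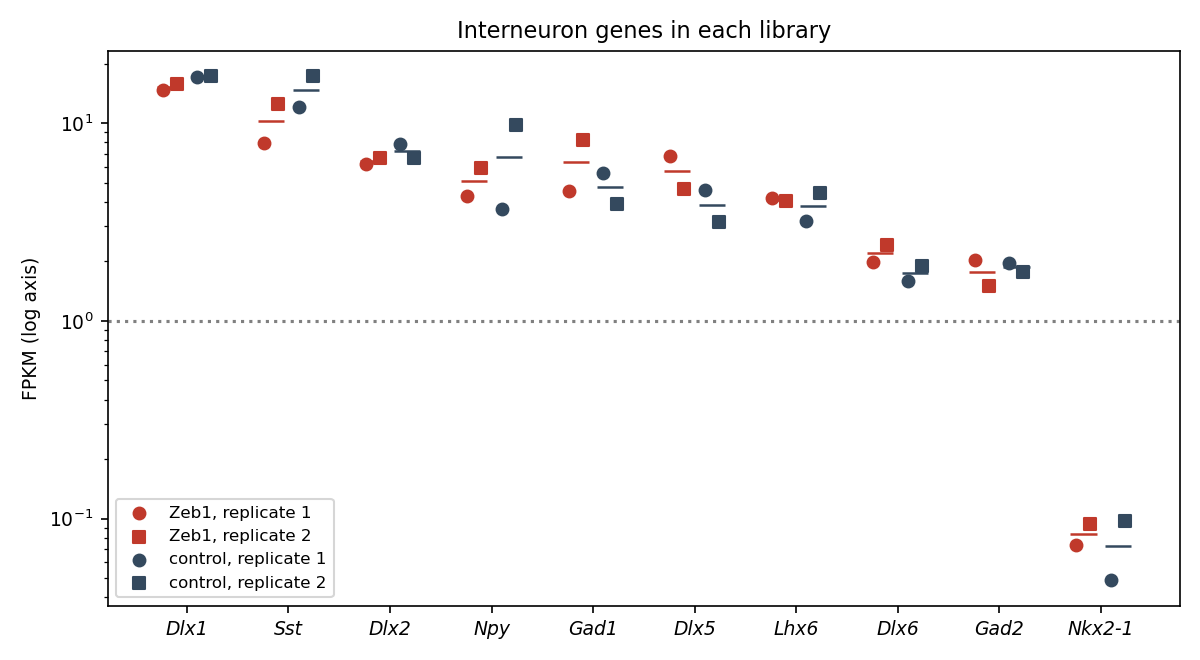
FPKM on a log axis of the 10 interneuron genes in each library, ordered by mean level, with a short line at the mean of each group (n = 2 libraries each) and a dotted line at 1 FPKM, the mean needed for testing. Dlx1 and Sst were highest, 9 genes lay above 1 FPKM in every library, and Nkx2-1 stayed under 0.1 FPKM in every library.

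Of the 10 genes, 9 reached the mean of 1 FPKM required for testing, and Nkx2-1 did not. In limma's moderated test on log2(FPKM + 1), with Benjamini-Hochberg adjustment over all 14330 genes tested, 0 of the 9 passed at an adjusted p under 0.05, where 0.195% of all tested genes passed. At an unadjusted p under 0.05, 0 of the 9 passed as well, against 6.92% of all tested genes. Most of the genes that passed after adjustment were listed at 0 in both libraries of 1 group, unlike any of the 9. Log2 fold changes of Zeb1 over control ran from -0.49 for Sst to 0.46 for Dlx5, with 4 positive, 5 negative and a median of -0.06, beside a median of 0.00032 over all tested genes. The adjusted p lay between 0.764 and 0.972. Leaving out 1 library at a time put Sst between -0.79 and -0.19 and Dlx5 between 0.22 and 0.70. The 95% intervals of Dlx1, Dlx2, Lhx6, Dlx6 and Gad2 stayed within a 2-fold change either way, while those of Sst, Npy, Gad1 and Dlx5 reached beyond a 2-fold change in at least 1 direction.

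**Figure D2:**
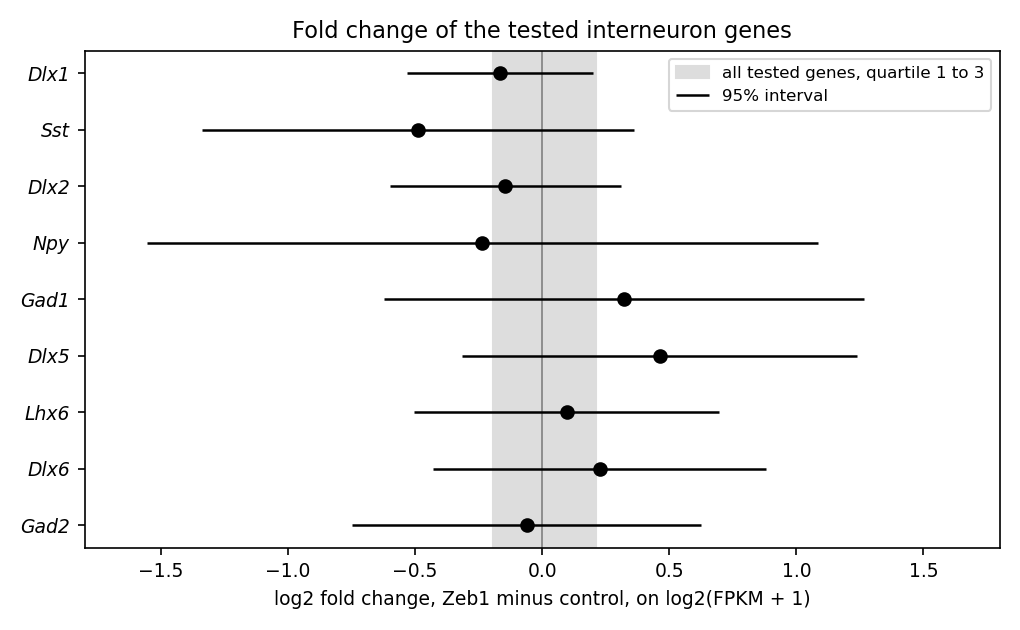
Log2 fold change, Zeb1 minus control, with its 95% interval from limma for the 9 tested interneuron genes; the grey band runs from the lower to the upper quartile of all 14330 tested genes, from -0.19 to 0.21. Every interval includes 0, and the widest is that of Npy, from -1.56 to 1.08.

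Dlx1, a homeodomain factor needed for interneuron migration and survival, lies at chr2:71528113-71533981 (plus strand, GRCm38) and was the most abundant of the 10 by mean level. It had 14.7 and 15.8 FPKM in the Zeb1 libraries, against 17.2 and 17.3 FPKM in the controls. Both Zeb1 libraries were below both controls, which lay close together, with group means of 15.3 ± 0.792 and 17.2 ± 0.0554 FPKM (SD, n = 2 each). The log2 fold change was -0.16 with a standard error of 0.13 (limma adjusted p = 0.775 over all tested genes, 95% interval -0.53 to 0.20).

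Dlx2, its neighbour and close relative, lies at chr2:71543408-71546754 on the minus strand, so the genes point towards each other across 9.4 kb. Dlx2 had 6.19 and 6.68 FPKM in the Zeb1 libraries, against 7.81 and 6.66 FPKM in the controls. Control replicate 1 was highest and the other 3 libraries were close together, so the groups overlapped. The log2 fold change was -0.14 (95% interval -0.60 to 0.31, limma adjusted p = 0.838). Dlx1 stood 2.38 and 2.37 times as high as Dlx2 in the Zeb1 libraries, against 2.20 and 2.59 times in the controls, as ratios of FPKM.

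Dlx5 and Dlx6 form a second such pair, at chr6:6877805-6882085 (minus strand) and chr6:6863334-6868568 (plus strand), 9.2 kb apart. Their products act after DLX1 and DLX2 in the same precursors. Dlx5 had 6.84 and 4.62 FPKM in the Zeb1 libraries, against 4.59 and 3.15 FPKM in the controls. The groups did not overlap, but Zeb1 replicate 2 and control replicate 1 were nearly equal. The log2 fold change was 0.46 with a standard error of 0.28, and its unadjusted limma p of 0.173 was the smallest of the 9, ranking 3100 among all tested genes (adjusted p = 0.764). Dlx6 had 1.99 and 2.42 FPKM in the Zeb1 libraries, against 1.58 and 1.89 FPKM in the controls, again without overlap (log2 fold change 0.23, 95% interval -0.43 to 0.88, limma adjusted p = 0.816). The sum of the 4 Dlx genes was 29.7 and 29.6 FPKM in the Zeb1 libraries, against 31.2 and 29.0 FPKM in the controls.

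Values of Dlx1 and Dlx6 share their loci with antisense RNAs. Dlx1as covers all of Dlx1 on the opposite strand, and Dlx6os1, a long noncoding RNA made along the Dlx5 and Dlx6 enhancers, covers all of Dlx6. Dlx1as had 5.22 and 5.93 FPKM in the Zeb1 libraries, against 5.17 and 8.04 FPKM in the controls. Dlx6os1 had 2.79 and 3.86 FPKM in the Zeb1 libraries, against 2.61 and 2.45 FPKM in the controls. Whether strand was used in the counting is not given in the sources used here, so reads of Dlx1 and Dlx1as, and of Dlx6 and Dlx6os1, may not have been told apart.

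**Figure D3:**
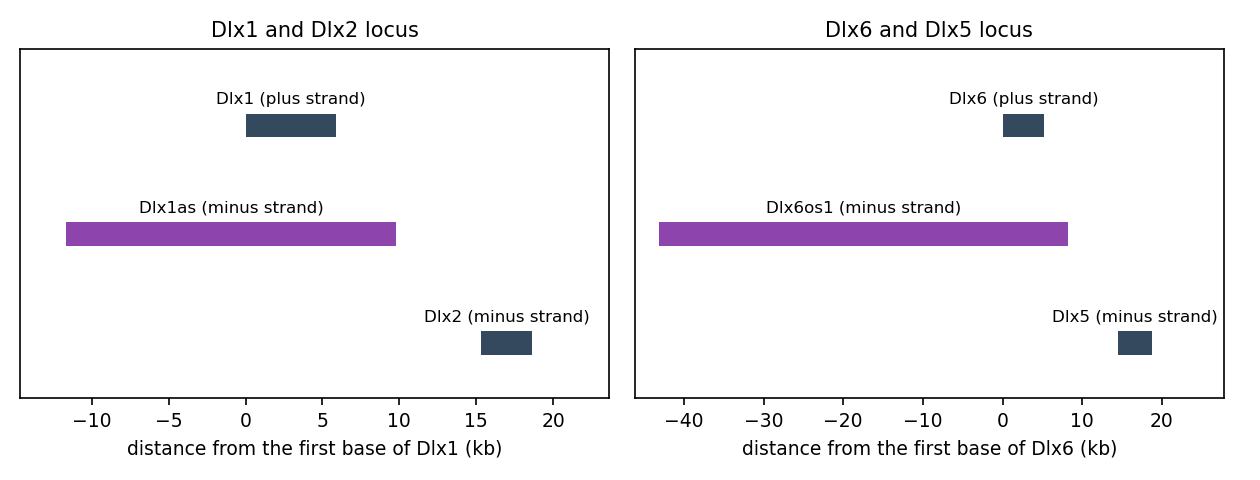
Loci of the paired Dlx genes as the table gives them, drawn to scale as distance in kb from the first base of Dlx1 (left) and of Dlx6 (right), with the antisense RNAs in purple. Each protein-coding pair points inwards, and the antisense locus spans the whole of Dlx1 or Dlx6.

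Nkx2-1, which marks progenitors of the medial ganglionic eminence and is switched off in most interneurons bound for the mouse cortex, lies at chr12:56531958-56536908 (minus strand). It had 0.0734 and 0.0937 FPKM in the Zeb1 libraries, against 0.0486 and 0.0967 FPKM in the controls. The libraries overlapped at a level far under that for testing. Lhx6, the LIM-homeodomain factor that NKX2-1 activates and that migrating medial-eminence interneurons keep, lies at chr2:36081953-36105408 (minus strand). Lhx6 had 4.17 and 4.04 FPKM in the Zeb1 libraries, against 3.19 and 4.44 FPKM in the controls. Both Zeb1 values lay between the control values, and the log2 fold change was 0.10 (95% interval -0.50 to 0.70, limma adjusted p = 0.936).

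Gad1 and Gad2 encode the larger and the smaller glutamate decarboxylase, at chr2:70553072-70602014 and chr2:22622205-22693874, both on the plus strand. Gad1 had 4.52 and 8.19 FPKM in the Zeb1 libraries, against 5.605 and 3.91 FPKM in the controls. Zeb1 replicate 2 was the highest, and Zeb1 replicate 1 lay between the controls (log2 fold change 0.32 with a standard error of 0.34, limma adjusted p = 0.819). Gad2 had 2.02 and 1.502 FPKM in the Zeb1 libraries, against 1.97 and 1.77 FPKM in the controls. The Zeb1 libraries enclosed the controls, with a log2 fold change of -0.06 (limma adjusted p = 0.972). Gad1 and Gad2 together stood at 20.0% and 23.7% of the summed FPKM of the vesicular glutamate transporters Slc17a6 and Slc17a7 in the Zeb1 libraries, against 16.2% and 12.7% in the controls. The groups did not overlap on this share, although they overlapped on Gad1, on Gad2 and on Slc17a6, which makes up most of the transporter sum. This share was not planned and has no test, and the groups did not overlap for 37.6% of all tested genes either. Slc17a6 had 26.0 and 35.2 FPKM in the Zeb1 libraries, against 34.8 and 34.7 FPKM in the controls. Slc17a7 had 6.70 and 5.78 FPKM in the Zeb1 libraries, against 11.9 and 10.004 FPKM in the controls, without overlap.

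Sst, which encodes the peptide somatostatin of many medial-eminence interneurons, lies at chr16:23889581-23890844 (minus strand). It had 7.95 and 12.6 FPKM in the Zeb1 libraries, against 12.04 and 17.3 FPKM in the controls. Zeb1 replicate 1 was lowest and control replicate 2 highest, while the remaining libraries were nearly equal. The log2 fold change was -0.49 with a standard error of 0.30 (95% interval -1.34 to 0.36, limma adjusted p = 0.764). Npy, which encodes neuropeptide Y and is often made by the same cells, lies at chr6:49822710-49829507 (plus strand). Npy had 4.27 and 5.93 FPKM in the Zeb1 libraries, against 3.69 and 9.79 FPKM in the controls. The control libraries differed 2.65-fold from each other and enclosed both Zeb1 libraries (log2 fold change -0.24, 95% interval -1.56 to 1.08, limma adjusted p = 0.929). Without control replicate 2, the log2 fold change of Npy was 0.36.

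Replicates of 1 group differed as much as the groups did for most of the genes. In 7 of the 9 tested genes, the difference between the group means was smaller than the difference between the replicates of at least 1 group on log2(FPKM + 1), the exceptions being Dlx1 and Dlx6. A difference larger than both replicate differences was thus found for 22.2% of the 9, against 25.0% of all tested genes. The groups did not overlap for Dlx1, Dlx5 and Dlx6, which is 33.3% of the 9, against 37.6% of all tested genes. Control replicate 2 held the highest value of 4 of the 9 tested genes, and each of the other libraries held that of 1 or 2.

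**Figure D4:**
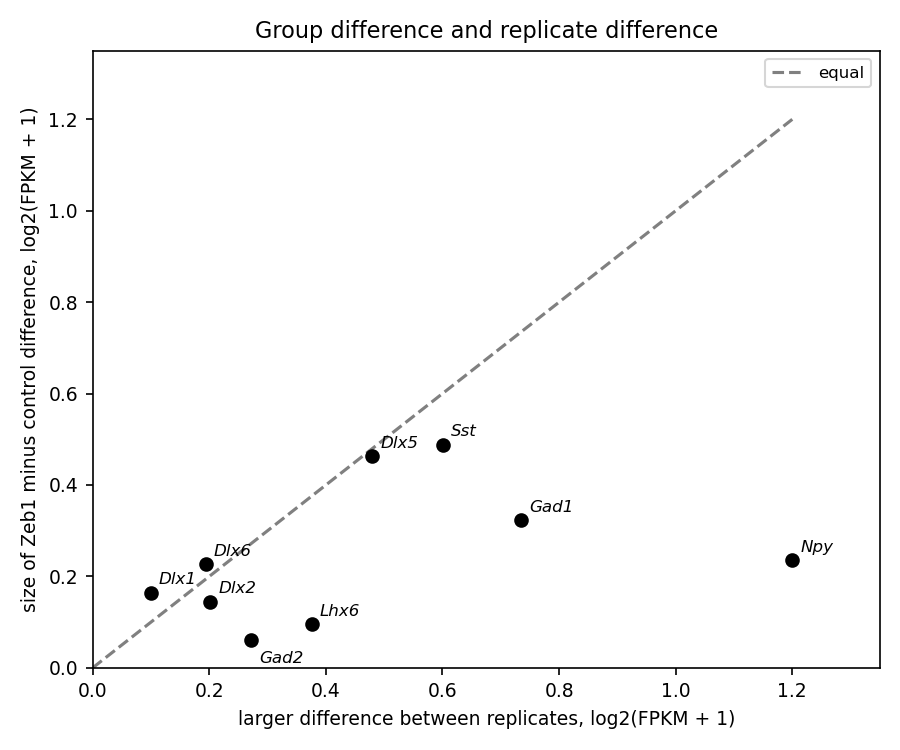
Size of the Zeb1 minus control difference against the larger of the differences between replicates of 1 group, both on log2(FPKM + 1), for the 9 tested interneuron genes. Points under the dashed line of equality differed more between replicates than between groups, and only Dlx1 and Dlx6 lie above it.

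In order of mean FPKM, the genes ran Dlx1, Sst, Dlx2, Npy, Gad1, Dlx5, Lhx6, Dlx6, Gad2 and Nkx2-1. Between neighbours in this order, the ranges over the 4 libraries were separate only between Sst and Dlx2 (a lowest Sst value of 7.95 and a highest Dlx2 value of 7.81 FPKM), Lhx6 and Dlx6, and Gad2 and Nkx2-1. Among the protein-coding genes tested, Dlx1 stood at FPKM percentiles of 47.9 to 54.8 over the libraries and Gad2 at percentiles of 5.56 to 9.53. Dlx1 and Sst together made up 43.0% and 45.9% of the summed level in the Zeb1 libraries, against 50.6% and 52.2% in the controls. This share was not planned and has no test. The groups overlapped on the share of Dlx1 alone, with 27.9% and 25.6% in the Zeb1 libraries, against 29.8% and 26.0% in the controls.

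ZEB1 binds E2-box elements, so the motif CAGGTG and its reverse complement CACCTG, which are 1 motif read on the 2 strands, were searched in RefSeq promoter windows (GRCm38.p6) that run from 250 bases before to 50 bases after a gene start. Windows were found for 8 of the 10 genes, all but Dlx5 and Dlx6, and the windows of Gad1, Dlx2 and Nkx2-1 held 1 match each. That is 37.5% of the 8 genes, against 22.6% of all 27025 genes with a window. A match describes the letters of the window only. Counted from the RefSeq start, the Gad1 match begins at base -104, in a stretch without a GENCODE exon, and the Nkx2-1 match at base -205. The Dlx2 match begins at base 34, in the untranslated part of the first exon. The 3 stretches are shown 5′ to 3′ on the strand of the gene, with the match in capitals, because they are the ones in which the motif of the overexpressed factor occurs.
Gad1 (chr2:70561879-70562041, plus strand): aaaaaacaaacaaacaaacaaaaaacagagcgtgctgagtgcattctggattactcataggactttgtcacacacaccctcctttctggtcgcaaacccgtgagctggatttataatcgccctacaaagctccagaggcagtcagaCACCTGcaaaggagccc
Nkx2-1 (chr12:56536909-56537158, minus strand): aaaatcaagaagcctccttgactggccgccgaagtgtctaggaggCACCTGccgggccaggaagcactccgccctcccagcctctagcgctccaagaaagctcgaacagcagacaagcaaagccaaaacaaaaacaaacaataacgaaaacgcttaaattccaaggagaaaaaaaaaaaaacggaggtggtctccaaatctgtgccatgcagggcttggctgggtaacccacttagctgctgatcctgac
Dlx2 (chr2:71546705-71546734, minus strand): ctcgggggtcgctCACCTGctcccgcctcc
Of these genes, Gad1 had a log2 fold change of 0.32 and Dlx2 one of -0.14, as given above, and Nkx2-1 was under the level for testing.

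Other genes of the inhibitory lineage were read from 4 lists that hold 65 genes together with the 10. Of the 65, 46 reached the level for testing and 0 passed in limma over all genes. At an unadjusted p under 0.05, 3 were higher and 2 lower in the Zeb1 libraries, which is against 3.23% higher and 3.68% lower of all tested genes. The median log2 fold change over the 46 was 0.07. Without the 10 genes, 37 were tested, 21 of them with a positive log2 fold change, and the median was 0.08. The 3 higher and 2 lower genes are all among these 37.

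Among 22 patterning factors of the ganglionic eminence, 13 were tested, 10 with a positive log2 fold change, and the median was 0.22. Sp8, a zinc-finger factor of the lateral and caudal eminence lineages, had 5.43 and 3.08 FPKM in the Zeb1 libraries, against 2.61 and 2.21 FPKM in the controls, with a log2 fold change of 0.59 (limma adjusted p = 0.764). Sp8 was higher in the Zeb1 libraries without overlap, as were 7 of the 13 tested in all, against 18.2% of all tested genes. The nuclear receptor gene Nr2f1, which pallial progenitors also express, was by far the most abundant of the list, with 281 and 350.4 FPKM in the Zeb1 libraries, against 282 and 258 FPKM in the controls. The summed list was 385 and 446 FPKM in the Zeb1 libraries, against 377 and 338 FPKM in the controls. Without Nr2f1, left out after its values were seen, it was 104 and 95.8 FPKM in the Zeb1 libraries, against 95.7 and 79.9 FPKM in the controls, with Zeb1 replicate 2 and control replicate 1 nearly equal. The medial-eminence factor Lhx8 was listed at 0 in both Zeb1 libraries and at 0.130 and 0.0323 FPKM in the controls.

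Among 17 genes of migrating interneurons, all tested, 3 were higher at an unadjusted limma p under 0.05 and 0 were lower. Over all tested genes, 3.23% were higher and 3.68% lower. The median log2 fold change of the 17 was 0.10, which is the value of Lhx6 itself. Ackr3, a scavenging receptor for the chemokine that guides interneurons, had 3.36 and 2.64 FPKM in the Zeb1 libraries, against 1.304 and 1.24 FPKM in the controls (log2 fold change 0.81, limma adjusted p = 0.643). Zfhx3, a zinc-finger homeobox factor, differed by 0.77 on the log2 scale (adjusted p = 0.706), and the signalling receptor Cxcr4 by 0.85 (adjusted p = 0.733). The guidance receptor Robo1 had the lowest of the list, -0.59. Zeb2, the relative of Zeb1 that turns off Nkx2-1 in cortical interneurons, had 88.6 and 102 FPKM in the Zeb1 libraries, against 121 and 99.7 FPKM in the controls. By mean over the libraries, Zeb2 at 103 and Robo1 at 22.3 FPKM stood far above Lhx6 at 3.96 FPKM. Genes of this list may therefore read other cells than interneurons, and which cells made their RNA was not tested.

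Microglia, the macrophages of the brain, share some genes with migrating interneurons, among them Cxcr4. All 9 microglia markers tested had a positive log2 fold change, from 1.02 to 1.47, but 0 of the 9 reached an unadjusted limma p under 0.05 or the adjusted threshold. Their summed level was 762 and 414 FPKM in the Zeb1 libraries, against 417 and 108 FPKM in the controls, and none was at 0. Zeb1 replicate 2 and control replicate 1 were nearly equal on this sum. The part of microglia in the differences of the migrating-interneuron list was not tested.

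Of 8 genes of GABA metabolism and transport, 7 were tested, with a median log2 fold change of -0.06 and 0 at an unadjusted limma p under 0.05. That median is the value of Gad2 itself. The vesicular GABA transporter Slc32a1, which loads the transmitter into vesicles, had 1.36 and 1.70 FPKM in the Zeb1 libraries, against 1.398 and 1.44 FPKM in the controls. Abat, which breaks GABA down, had a log2 fold change of -0.43 (limma adjusted p = 0.764).

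Of 18 subtype peptides and markers, 9 were tested and 7 of these had a negative log2 fold change, with a median of -0.38. Nos1, the neuronal nitric oxide synthase, had 12.8 and 18.8 FPKM in the Zeb1 libraries, against 31.3 and 31.1 FPKM in the controls (log2 fold change -0.96, limma adjusted p = 0.580). The receptor tyrosine kinase gene Kit had 6.77 and 3.46 FPKM in the Zeb1 libraries, against 12.5 and 14.2 FPKM in the controls (-1.28, adjusted p = 0.605). Cort, which encodes the somatostatin relative cortistatin, had a log2 fold change of -0.52, and Chodl, which marks a long-range Sst class, had 0.64. The summed list was 50.04 and 57.6 FPKM in the Zeb1 libraries, against 80.4 and 92.5 FPKM in the controls. Without Nos1 and Kit, left out after their values were seen, it was 30.5 and 35.4 FPKM in the Zeb1 libraries, against 36.6 and 47.3 FPKM in the controls. Vip stayed under 0.1 FPKM in every library, and Pvalb was listed at 0 in Zeb1 replicate 1 and control replicate 1.

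Neighbouring cell types were read in the same way. Drd1 and Drd2, dopamine receptors of striatal projection neurons, stayed under 0.4 FPKM in every library, and of the 14 striatal markers 7 were tested, with a median log2 fold change of 0.03. Meis2, chosen after its values were seen, made up most of that list's sum, which was 21.1 and 16.2 FPKM without it in the Zeb1 libraries, against 20.9 and 22.6 FPKM in the controls. Of the 17 pallial markers, 12 had a negative log2 fold change, with a median of -0.15. At an unadjusted limma p under 0.05, 4 of the 17 were lower, against 3.68% of all tested genes, and 0 passed after adjustment. Without overlap of the groups, 9 of the 17 were lower and 2 higher, against 37.6% of all tested genes in either direction. Emx1, a homeobox factor of the pallium, had 41.7 and 39.1 FPKM in the Zeb1 libraries, against 64.1 and 96.2 FPKM in the controls (log2 fold change -0.94, adjusted p = 0.605). In the list of Cajal-Retzius cells, the early Reln-expressing neurons of the cortical surface, Ebf3 had 24.4 and 22.6 FPKM in the Zeb1 libraries, against 1.56 and 1.12 FPKM in the controls (log2 fold change 3.39, limma adjusted p = 0.0273), and it was the only gene of these lists that passed over all genes. With any 1 library left out, 0 genes passed, Ebf3 included. Nhlh2, a bHLH factor of the same list, had 10.3 and 6.43 FPKM in the Zeb1 libraries, against 2.49 and 1.78 FPKM in the controls (log2 fold change 1.56, limma adjusted p = 0.469). The summed list was 48.0 and 43.0 FPKM in the Zeb1 libraries, against 21.9 and 17.7 FPKM in the controls. Without Ebf3 and Nhlh2, left out after their values were seen, the sum was 13.3 and 14.0 FPKM in the Zeb1 libraries. In the controls it was 17.9 and 14.8 FPKM. Leaving out the tested genes that rose most lowers the Zeb1 sum by construction, so no change of order is read from it. The 3 other genes tested had a negative log2 fold change. Ebf2, under the level for testing, had 1.07 and 1.10 FPKM in the Zeb1 libraries, against 0.108 and 0.0594 FPKM in the controls. Reln itself, also made by interneurons, had 8.17 and 8.84 FPKM in the Zeb1 libraries, against 13.1 and 9.80 FPKM in the controls, and Trp73 stayed under 1 FPKM. Markers of oligodendrocyte precursors, the earliest of which also come from the ganglionic eminences, summed to 17.9 and 17.0 FPKM in the Zeb1 libraries, against 15.6 and 13.9 FPKM in the controls. Most of this sum came from Olig1 and Olig2, and Olig2 is also in the ganglionic-eminence list. Pdgfra, Sox10 and Cspg4 were under the level for testing, and the groups overlapped on each. Endothelial and mural markers summed to 10.2 and 7.52 FPKM in the Zeb1 libraries, against 5.36 and 7.18 FPKM in the controls. Erythroid markers summed to 138 and 49.7 FPKM in the Zeb1 libraries, against 64.1 and 55.3 FPKM in the controls, so that the groups overlapped. Meningeal fibroblast markers summed to under 2 FPKM in every library.

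**Figure D5:**
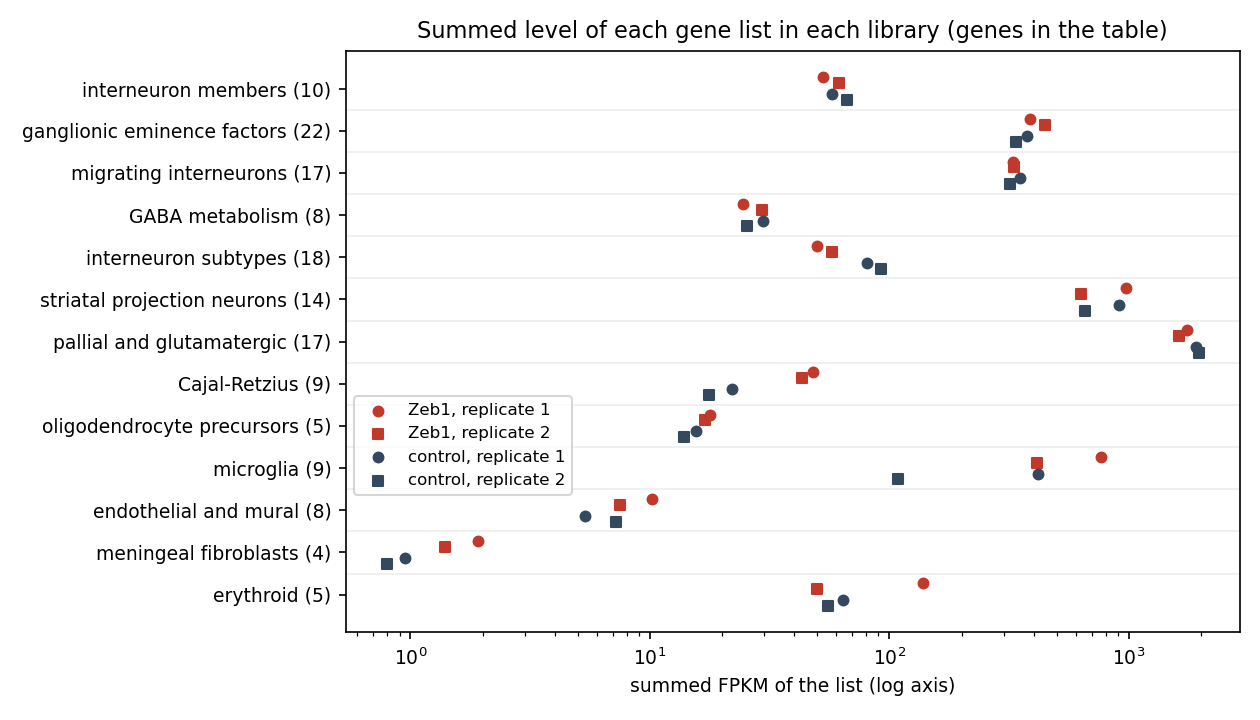
Summed FPKM, on a log axis, of the 10 interneuron genes and of 12 marker lists in each of the 4 libraries; the number in brackets is how many genes each list has in the table. The groups overlap for the interneuron genes. Without overlap, the Zeb1 libraries lie below the controls for the subtype and pallial lists. They lie above the controls for the ganglionic-eminence, Cajal-Retzius, oligodendrocyte precursor, endothelial and meningeal lists. The Cajal-Retzius difference rests mostly on Ebf3 and Nhlh2, and the oligodendrocyte precursor difference on Olig1 and Olig2.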

How the data were processed

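FPKM values per gene and library were made and deposited by the authors. The submitters' processing notes name the tools STAR, Cufflinks and DESeq2 and the build GRCm38; their versions and roles and the use of strand are not given in the sources used here. Of its lines, 48395 held a gene and 1 was empty, and 27 symbols that a spreadsheet had turned into dates were restored from gene identifiers. Gene starts were counted from 0 in the table, so 1 was added. Where a symbol repeats, the longest locus was taken.

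Values were compared as log2(FPKM + 1) with limma 3.58.1 (statmod 1.5.0, R 4.3.3), two-sided, with an intensity trend, over the 14330 genes whose mean over the libraries reached 1 FPKM, with Benjamini-Hochberg adjustment and a threshold of 0.05. The 10 genes and the lists were chosen with earlier results of these data known. Named besides these are, from each of the first 7 lists, the genes with the largest and smallest fold change, up to 4 by smallest p and, for the first 4, the most abundant. Outside this rule, and after their values were seen, the text names Slc32a1, Lhx8, Cxcr4, Vip, Pvalb, Drd1, Drd2, Trp73, Meis2, Neurod6 and Slc17a6. In the same way it names Ebf2, Olig1, Olig2, Pdgfra, Sox10, Cspg4, the antisense RNAs, Dlx3, Dlx4 and the peptide receptors. Some genes that the rule selects are not reported here. With 2 libraries a group, exact permutation reaches no p below 0.333 and was not used.

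The alternatives were other pseudocounts, filters, scalings and moderation, protein-coding genes alone, a replicate block and leaving out each library.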

Additional observations from a re-analysis of the deposited data

How the results depend on the processing

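Under 15 alternative settings, 0 of the interneuron genes passed the adjusted threshold in limma, with a smallest adjusted p of 0.543, for Sst. Of 131 log2 fold changes under these settings, 127 kept their direction, and the other 4 turned when a single library was left out; the cause was not tested. Without control replicate 1, Lhx6 had -0.0916; without control replicate 2, Npy had 0.36; without Zeb1 replicate 2, Gad1 had -0.0445 and Gad2 0.0744. With 1 library left out, the ranges were -0.09 to 0.28 for Lhx6, -0.84 to 0.36 for Npy, -0.04 to 0.69 for Gad1 and -0.20 to 0.07 for Gad2, and, with no change of direction, -0.79 to -0.19 for Sst, 0.22 to 0.70 for Dlx5, -0.25 to -0.04 for Dlx2, 0.13 to 0.32 for Dlx6 and -0.21 to -0.11 for Dlx1, where the remaining library of the reduced group takes its spread from the other group. At an unadjusted p under 0.05, 1 interneuron gene passed with a replicate block (Sst, limma adjusted p = 0.543) and 0 under every other setting. Over all genes, 28 passed in limma, against 1 without a filter, 3 among protein-coding genes alone, 11 with a replicate block and 0 when any 1 library was left out. The labels do not say that equal replicate numbers mark a shared litter or day, and the deviations of equally numbered libraries from their group means correlated at 0.0833 over 14330 genes, so the block is given only here. The table holds no counts, and no counting error was attached to low values such as those of Nkx2-1 and Lhx8, which few fragments can give.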

Other observations

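Receptors for the peptides, a set chosen after their values were seen, were mostly low. Sstr2, a somatostatin receptor, stood far above the rest with 111 and 102 FPKM in the Zeb1 libraries, against 122 and 135 FPKM in the controls (log2 fold change -0.27, limma adjusted p = 0.764 over all tested genes). Sstr3 had 0.696 and 0.334 FPKM in the Zeb1 libraries, against 2.08 and 2.13 FPKM in the controls (log2 fold change -1.04, limma adjusted p = 0.621), and both Zeb1 libraries were lower. Npy1r had 2.03 and 1.74 FPKM in the Zeb1 libraries, against 1.33 and 0.966 FPKM in the controls (log2 fold change 0.43, adjusted p = 0.764), and Npy2r, Npy4r and Npy5r stayed under 0.2 FPKM in every library.

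Dlx5 and Dlx6 together stood at 0.423 and 0.313 times the summed FPKM of Dlx1 and Dlx2 in the Zeb1 libraries, against 0.247 and 0.211 times in the controls. This ratio was chosen after the values were seen, so it has no test. A second, 146 bp entry of Dlx6os1, annotated as misc_RNA, had 5.56 and 10.7 FPKM in the Zeb1 libraries. That entry was listed at 0 in both controls (limma adjusted p = 0.234), whereas the long Dlx6os1 entry had an adjusted p of 0.777. FPKM is scaled by length, so very few fragments can give such values at 146 bp. The table holds no counts to tell how many there were. The remaining family members Dlx3 and Dlx4 stayed under 0.05 FPKM in every library.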
